A study of Mus musculus with 12 samples.

Results

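A set of 10 genes of the Wnt/β-catenin pathway was followed in aged mice through liver tumors of different driver mutations and the non-tumoral livers of the same animals. The set consists of Wnt feedback and pericentral regulator genes listed by symbol (Axin2, Nkd1, Notum, Sp5, Rnf43, Znrf3, Lgr5, Tbx3, Tcf7, and Lef1), and all 10 were found among the 24421 genes counted. Poly(A) RNA of 6 tumors and 6 livers was sequenced from 4 p21+/Tert mice and 2 p21+/TertCi mice on a standard diet. In all of them a Tert allele is expressed from the promoter of Cdkn1a, the gene of the cell cycle inhibitor p21, and in p21+/TertCi mice this Tert is catalytically inactive. The livers used as reference therefore carry the allele too and come from tumor-bearing mice, and WT livers and the other tumors of the study were not analysed here. Each tumor is 1 lesion of 1 mouse. The liver paired with T-HCC662 is titled with another number and was taken as its own. By the mutations that the exome data of the study gave, T-HCC662 and T-HCC663 were Ctnnb1-mutated (the gene of β-catenin), T-HCC941 carried a mutation of Egfr and TCi-HCC981 of Hras, and T-HCA992 and TCi-HCA984 carried none of the 3. The same exome data list a missense mutation of Rnf43, a member of the set, in TCi-HCC981. Both Ctnnb1-mutated tumors come from p21+/Tert mice, as do T-HCC941 and T-HCA992, and no p21+/TertCi tumor analysed here was Ctnnb1-mutated. T-HCC663 is named a carcinoma but listed as an adenoma in the histology of the study. The Egfr- and Hras-mutated tumors are named hepatocellular carcinomas (HCC) and the tumors with neither mutation adenomas (HCA), so driver and tumor type cannot be told apart between these pairs.

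In the absence of a Wnt ligand, β-catenin is phosphorylated and degraded by a complex built on Axin proteins, and a Wnt signal stops this so that β-catenin enters the nucleus and acts with TCF/LEF proteins on target genes. Many of these targets act back on the pathway: Axin2, Nkd1, Notum, Rnf43, and Znrf3 all restrain it. In the liver lobule, Wnt ligands and the R-spondin Rspo3 from endothelial cells of the central vein keep hepatocytes around that vein in a pericentral program, in which glutamine synthetase (Glul) and Axin2, Lgr5, and Tbx3 are expressed. Activating Ctnnb1 mutations change the stretch of β-catenin by which it is marked for degradation.

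Between 14571716 and 26170661 reads per library were counted on genes. Levels are given in CPM, the reads of a gene relative to the TMM-scaled size of its library. Groups were compared with the quasi-likelihood test of edgeR on the counts, p-values were adjusted over the 15182 genes tested, and a gene was called at an adjusted p below 0.05. Log2 fold changes are written ± SE. The intervals given for some of them are nominal. They take a normal quantile of the SE and are narrower than the quasi-likelihood test itself would give. Hepatocyte marker RNA (6 genes summed) was high throughout, at 27940 to 52880 CPM in livers, 34490 and 18840 CPM in the Ctnnb1-mutated tumors, and 64540 to 96660 CPM in the other tumors. In bulk tissue, fewer cells of a type and less RNA per cell cannot be told apart. All comparisons with livers share the same 6 livers.

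The members separated the Ctnnb1-mutated tumors from the livers and from the other tumors. The study had already reported that T-HCC662 and T-HCC663 strongly express a gene signature of Ctnnb1-mutated human HCC. It holds Axin2, Lgr5, Nkd1, Notum, Sp5, and Tcf7, and also Glul, Rhbg, and Tnfrsf19. For T-HCA992 the study reported suppressed Wnt signaling, and it proposes a link to a mutated phosphatase subunit, Ppp1r9a. The members were chosen with earlier results of these data known, so their direction in the Ctnnb1-mutated tumors was largely known beforehand. Of the 10 members, 9 were called higher in the Ctnnb1-mutated tumors than in livers, whereas 5% of all genes tested were called higher. In the 4 tumors without a Ctnnb1 mutation, no member was called higher and 7 were called lower, against 11.5% of all genes called lower. Between the tumor classes, all 10 were called higher in the Ctnnb1-mutated tumors, against 6.76% of all genes. With genotype added as a term, these counts were again 9, 7, and 10. The median log2 fold change of the members was 1.98 in Ctnnb1-mutated tumors and -2.34 in the other tumors, each against livers, and the medians of all genes tested were -0.03 and -0.03. Both Ctnnb1-mutated tumors lay above all 6 livers for 10 of 10 members (12.3% of all genes tested) and above the 4 other tumors for 10 of 10 (18.1% of all genes). The 4 other tumors all lay below the 6 livers for 7 of 10 members (7.57% of all genes). Lef1 passed the filter on low counts only through the 2 Ctnnb1-mutated tumors, so its difference was a condition of being tested, and it adds nothing to these counts: of the remaining 9 members, 8 were called higher than in livers. In 8 members the class means fell in the order Ctnnb1-mutated tumors, livers, tumors with neither mutation, and Egfr- or Hras-mutated tumors. In the plot of single libraries, all libraries kept this order for Axin2, Nkd1, Sp5, Rnf43, and Tbx3. For Notum, Znrf3, and Lgr5 the last 2 classes overlapped, and Znrf3 also overlapped the livers. How many of all genes have class means in this order was not counted.

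**Figure D1:**
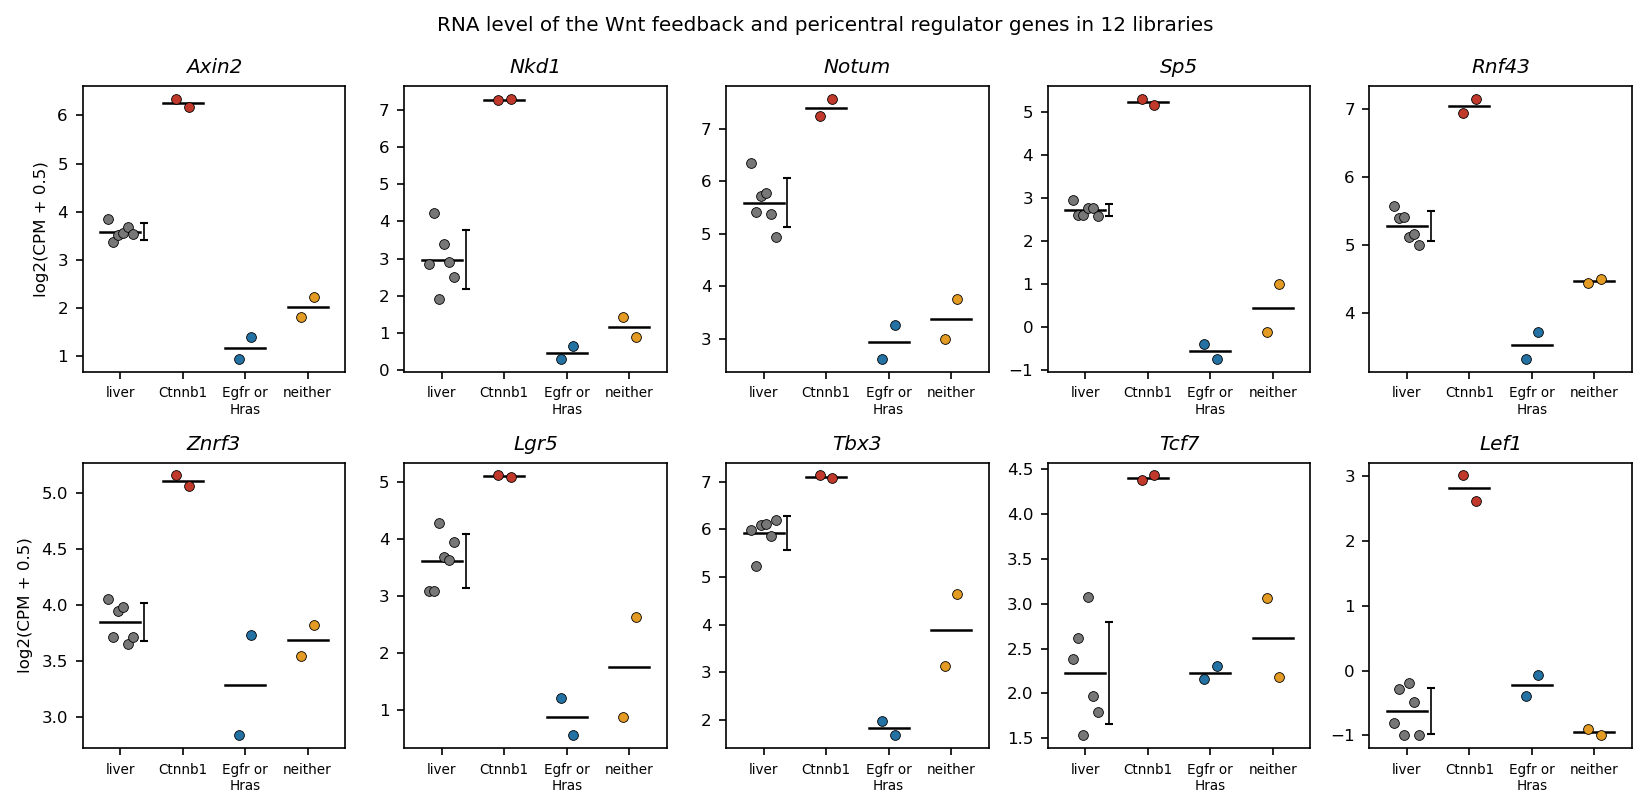
RNA level of each of the 10 genes, as log2(CPM + 0.5) on its own vertical axis, in the 6 livers (grey), the 2 Ctnnb1-mutated (red), 2 Egfr- or Hras-mutated (blue), and 2 other tumors (orange). Points are libraries, lines are group means, and the bar beside the livers is ± 1 SD (n = 6). The red points lie above all other points in every panel, and only in Znrf3, Tcf7, and Lef1 do blue or orange points reach the range of the livers.

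Axin2 and Nkd1 act inside the cell. Axin2, a scaffold of the β-catenin destruction complex and a widely used readout of the pathway (GRCm38 chromosome 11, 108920349 to 108950783), had 9.80, 11.3, and 14.0 CPM as the lowest, median, and highest of the 6 livers. T-HCC662 and T-HCC663 reached 80.6 and 71.9 CPM, whereas the Egfr- and Hras-mutated tumors had 1.43 and 2.14 CPM and the adenomas T-HCA992 and TCi-HCA984 3.01 and 4.20 CPM. The ranges of livers, Ctnnb1-mutated tumors, and other tumors did not overlap, and the livers varied by only 12.3% of their mean (coefficient of variation). Against livers, Axin2 rose by 2.71 ± 0.19 in Ctnnb1-mutated tumors on the log2 scale (6.56-fold, adjusted p of 5.272e-05) and changed by -2.20 ± 0.19 in the other tumors (4.58-fold lower, adjusted p of 4.521e-05). By p-value Axin2 ranked 2 among the 15182 genes in the first of these tests. Nkd1 (chromosome 8, 88521354 to 88594884), whose protein binds Dishevelled and dampens the signal, ranged more widely in livers, with 3.32, 6.90, and 18.4 CPM as lowest, median, and highest. T-HCC662 and T-HCC663 reached 152 and 156 CPM, the Egfr- and Hras-mutated tumors had 0.742 and 1.07 CPM, and the 2 adenomas had 2.22 and 1.38 CPM. The liver paired with T-HCC663 gave the highest liver value and still lay far below its tumor. Nkd1 rose by 4.19 ± 0.44 in Ctnnb1-mutated tumors (18.2-fold, adjusted p of 0.0002753) and changed by -2.71 ± 0.45 in the others (adjusted p of 0.001868). Genes of chromosome 8 as a whole stood lower in RNA in T-HCC941 and TCi-HCC981, with median log2 ratios to the own liver of -0.33 and -0.22 relative to all genes, against -1.62 and -2.26 for Nkd1. The part of copy number in the Nkd1 levels was not tested.

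Notum encodes a secreted enzyme that inactivates Wnt proteins by removing their lipid (chromosome 11, 120653788 to 120661175). It had 30.3, 47.1, and 80.4 CPM as lowest, median, and highest liver. In T-HCC662 and T-HCC663 it reached 150 and 189 CPM, in the Egfr- and Hras-mutated tumors it had 5.67 and 9.11 CPM, and in the adenomas T-HCA992 and TCi-HCA984 7.48 and 13.0 CPM. The groups did not overlap, and the highest liver was the one paired with T-HCC662. Against livers, Notum rose by 1.76 ± 0.31 in Ctnnb1-mutated tumors (adjusted p of 0.006604) and changed by -2.52 ± 0.30 in the others (adjusted p of 0.0002966). When each tumor was set against its own liver by a mouse block, the rise was not called (adjusted p of 0.106), nor was it without T-HCC663 (0.0565), and adjusted p-values ranged from 6.03e-05 to 0.202 over 19 alternatives. An annotated antisense gene, Notumos, shares 708 bases with the exons of Notum (29.4% of them), and since the use of strand in the counting is not given in the sources used here, reads of the 2 genes cannot be told apart.

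Sp5 is a zinc finger transcription factor and a direct target of β-catenin that acts back on other targets. It was the steadiest member in livers, at 5.50, 5.96, and 7.28 CPM as lowest, median, and highest (coefficient of variation 11.0%). T-HCC662 and T-HCC663 had 38.9 and 35.3 CPM. The Egfr- and Hras-mutated tumors had 0.265 and 0.102 CPM (5 and 2 reads), and the adenomas T-HCA992 and TCi-HCA984 had 0.430 and 1.49 CPM (12 and 26 reads). No group overlapped another. Sp5 rose by 2.60 ± 0.33 in Ctnnb1-mutated tumors (adjusted p of 0.0009245) and changed by -3.86 ± 0.37 in the others (adjusted p of 0.0001012), the lowest value of the 10 members there. The gene lies on chromosome 2, from 70474923 to 70477729. Its promoter is shown because its 250 bases before the start held more of the letters to which TCF/LEF proteins bind than any other member window of RefSeq (GRCm38.p6). The search on both strands was for the word CTTTGAT, for the form CTTTGTT with another sixth letter, for the form CTTTGAA with another last letter, and for CTTTGTA, which differs in both, so that only 1 of them can match at a given position. Promoter windows were given for 6 of the 10 members (11 windows in all, for Axin2, Nkd1, Sp5, Rnf43, Tcf7, and Lef1), and 2 of the 11 held a match, Sp5 with 2 and an internal start of Lef1 with 1, whereas 14.8% of all 32817 windows held at least 1. The matches are given 5′ to 3′ on the strand of the gene, with the searched letters in capitals and 15 bases on either side.
Sp5 upstream match, chr2:70474686-70474722, first base 222 bases before the start: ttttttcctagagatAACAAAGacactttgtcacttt
Sp5 downstream match, chr2:70474804-70474840, first base 104 bases before the start: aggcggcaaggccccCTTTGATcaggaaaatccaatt
Lef1 internal start, chr3:131156132-131156168, first base 147 bases before that start: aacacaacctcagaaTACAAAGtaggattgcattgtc
The first Sp5 match and that of Lef1 read as CTTTGTT and CTTTGTA on the opposite strand. A match is a description of the letters and says nothing of binding in these samples.

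Rnf43 and Znrf3 are related membrane E3 ubiquitin ligases that remove Frizzled receptors from the cell surface, and R-spondins, bound to Lgr receptors, withdraw these ligases. Rnf43 (chromosome 11, 87662722 to 87735539) had 31.5, 38.4, and 47.3 CPM as lowest, median, and highest liver. T-HCC662 and T-HCC663 had 122 and 141 CPM, the Egfr- and Hras-mutated tumors 9.54 and 12.7 CPM, and the adenomas T-HCA992 and TCi-HCA984 21.2 and 22.2 CPM. All groups stayed apart, and TCi-HCC981, the tumor with the listed Rnf43 mutation, lay within the range of the other 3 tumors without a Ctnnb1 mutation. Rnf43 rose by 1.77 ± 0.18 in Ctnnb1-mutated tumors (adjusted p of 0.0002338) and changed by -1.31 ± 0.16 in the others (adjusted p of 0.0003386). Znrf3 (chromosome 11, 5276324 to 5444847) had 12.1, 13.8, and 16.1 CPM as lowest, median, and highest liver, and 35.1 and 32.8 CPM in T-HCC662 and T-HCC663. The Egfr- and Hras-mutated tumors had 6.63 and 12.7 CPM and the adenomas 11.2 and 13.6 CPM, so that TCi-HCC981 and TCi-HCA984 lay within the range of the livers and T-HCC941 and T-HCA992 below it. Znrf3 rose by 1.29 ± 0.23 in Ctnnb1-mutated tumors (adjusted p of 0.006478). This call ended with the mouse block (0.0746) or without T-HCC662 (0.0603), within a range of adjusted p from 3.29e-05 to 0.27 over 19 alternatives. In the other tumors Znrf3 differed from livers by -0.35 ± 0.19 (95% interval -0.73 to 0.03, adjusted p of 0.222), and without TCi-HCC981 it was called lower (-0.62, adjusted p of 0.043, with a range of 0.043 to 0.587). Whether Rnf43 and Znrf3 differ from each other in this was not tested.

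Lgr5 is a receptor for R-spondins and a mark of pericentral hepatocytes next to the central vein. On chromosome 10, from 115450311 to 115587780, it had 7.93, 12.1, and 19.0 CPM as lowest, median, and highest liver. T-HCC662 and T-HCC663 had 34.0 and 33.6 CPM, the Egfr- and Hras-mutated tumors 1.80 and 0.967 CPM, and the adenomas T-HCA992 and TCi-HCA984 1.32 and 5.69 CPM. Livers and both tumor classes lay apart, yet Lgr5 was the member that missed the threshold in Ctnnb1-mutated tumors, at 1.46 ± 0.44 against livers (95% interval 0.60 to 2.31, adjusted p of 0.0639). It passed with the mouse block (2.08, adjusted p of 0.0358) and in 4 more of 19 alternatives, among them DESeq2 (0.0257), over a range of 0.0201 to 0.222. Lgr5 fell in the other tumors, with a change of -2.49 ± 0.42 (adjusted p of 0.002076). Tbx3, a transcriptional repressor and a target of β-catenin in the liver (chromosome 5, 119670669 to 119684724), had 37.0, 65.5, and 73.1 CPM as lowest, median, and highest liver. T-HCC662 and T-HCC663 had 140 and 135 CPM, the Egfr- and Hras-mutated tumors 3.45 and 2.70 CPM, and the adenomas 8.24 and 24.4 CPM. These groups did not overlap either, and TCi-HCA984 stood highest among the tumors without a Ctnnb1 mutation. The rise of Tbx3 in Ctnnb1-mutated tumors was the smallest of the 10, at 1.17 ± 0.32 (adjusted p of 0.04739). It was not called with the mouse block (0.056) or in 10 of the 12 fits that left out 1 library each (adjusted p of 0.0531 to 0.19). Tbx3 fell in the other tumors, with a change of -3.12 ± 0.31 (8.67-fold lower, adjusted p of 0.0001336), a call made in all 19 alternatives. The median log2 ratio in RNA of 919 chromosome 5 genes to the own liver, relative to all genes, was 0.17 in T-HCC941 and -0.16 in TCi-HCC981, against -4.12 and -4.19 for Tbx3. The exome data of the study gave a gain on chromosome 5 in both tumors. The part of copy number in the Tbx3 levels was not tested.

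Tcf7 and Lef1 encode TCF/LEF proteins, the DNA-binding partners of β-catenin, and both are also expressed by T lymphocytes. Tcf7 (chromosome 11, 52252371 to 52283014) had 2.39, 4.07, and 7.92 CPM as lowest, median, and highest liver, and 20.3 and 21.1 CPM in T-HCC662 and T-HCC663. The Egfr- and Hras-mutated tumors had 3.98 and 4.43 CPM and the adenomas T-HCA992 and TCi-HCA984 7.88 and 4.02 CPM, all within the range of the livers. Tcf7 rose by 2.20 ± 0.39 in Ctnnb1-mutated tumors (adjusted p of 0.006604) and differed from livers by 0.15 ± 0.34 in the others (95% interval -0.52 to 0.82, adjusted p of 0.789). Lef1 (chromosome 3, 131110471 to 131224356) had 0 to 0.372 CPM in livers (0 to 7 reads), with a median of 0.141 CPM. Outside the Ctnnb1-mutated tumors it stayed close to the limit of detection, with 5 and 9 reads in the Egfr- and Hras-mutated tumors (0.265 and 0.458 CPM) and 1 and 0 reads in the adenomas. The 0 reads of TCi-HCA984 allow up to 0.172 CPM, the level of 3 reads, for counting error only. T-HCC662 and T-HCC663 had 7.56 and 5.66 CPM, from 169 and 131 reads. Lef1 was higher by 5.25 ± 0.82 in these tumors than in livers (38.2-fold, adjusted p of 0.003116). An annotated antisense gene shares 1208 bases with the exons of Lef1 (13.7%), and reads of the 2 genes cannot be told apart here. T cell marker RNA (Cd3d, Cd3e, and 6 more genes summed) was 1.09 to 12.9 CPM in livers and 9.34 and 23.3 CPM in T-HCC662 and T-HCC663. It was 30.9 and 20.4 CPM in the Egfr- and Hras-mutated tumors and 6.77 and 3.85 CPM in the adenomas, and none of the 8 markers was called in either comparison with livers. T-HCC941, with the highest sum of these markers, had 3.98 CPM of Tcf7 and 0.265 CPM of Lef1. The sum in T-HCC663 lay above all livers, and the part of T cells in the Tcf7 and Lef1 levels was not tested.

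**Figure D2:**
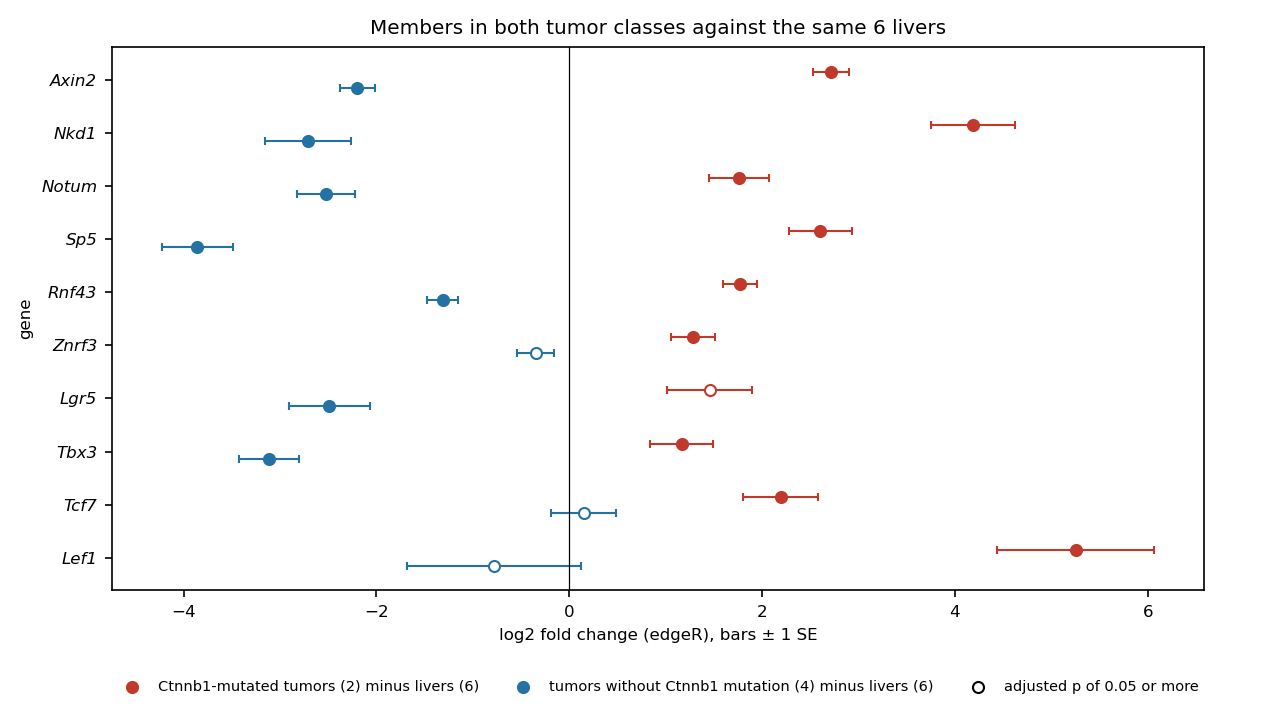
Log2 fold change of each member (horizontal axis, edgeR, bars ± 1 SE) in the 2 Ctnnb1-mutated tumors (red) and the 4 tumors without a Ctnnb1 mutation (blue), each against the same 6 livers. Open symbols have an adjusted p of 0.05 or more, which holds for Lgr5 in red and for Znrf3, Tcf7, and Lef1 in blue. All red values are above 0, from 1.17 for Tbx3 to 5.25 for Lef1, and 9 of 10 blue values are below it.

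Between the tumor classes the difference was tested directly. Ctnnb1-mutated tumors exceeded the other tumors by 1.63 ± 0.25 (Znrf3, adjusted p of 0.002707) to 6.90 ± 0.57 (Nkd1, adjusted p of 7.146e-05) on the log2 scale. Axin2 differed by 4.91 ± 0.23 (adjusted p of 6.63e-07), with a 95% interval of 4.46 to 5.36. The difference was 6.46 for Sp5, 6.03 for Lef1, 4.28 for Notum and for Tbx3, 3.95 for Lgr5, 3.08 for Rnf43, and 2.05 for Tcf7. For Lef1, which passed the filter only through the Ctnnb1-mutated tumors, it was a condition of being tested. With the mouse block the calls of Znrf3, Tcf7, and Lef1 ended (adjusted p of 0.0857, 0.0715, and 0.102), and the number of all genes called fell from 1896 to 441. Over 19 alternatives the adjusted p ranged from 4.2e-07 to 0.24 for Znrf3, from 0.00042 to 0.265 for Tcf7, and from 1.57e-06 to 0.317 for Lef1. Tcf7 was not called without T-HCC662 (0.073) or without T-HCC663 (0.0603) either.

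Within the tumors without a Ctnnb1 mutation, the Egfr- and Hras-mutated carcinomas had a lower mean than the adenomas for 9 of 10 members. The share of all genes with a lower mean was not counted. The median log2 fold change was -0.98 for the members and -0.04 for all genes tested. No member and 0% of all genes passed the threshold in edgeR, although 1331 of the 15182 genes had an unadjusted p below 0.05, and DESeq2 called 105 genes. For Axin2, Nkd1, Sp5, Rnf43, and Tbx3 both mutated tumors lay below both adenomas, as did 21.4% of all genes. Tbx3 gave the smallest p-value of the members, at -2.40 ± 0.46 (95% interval -3.30 to -1.50, adjusted p of 0.202). DESeq2 called it (adjusted p of 0.000493), and over 19 alternatives the adjusted p reached 0.992. Sp5 differed by -2.32 ± 0.59 (adjusted p of 0.437) and Rnf43 by -0.96 ± 0.24 (adjusted p of 0.426), values that did not pass the test. Lef1, at 5 and 9 against 1 and 0 reads, was too low for a fold.

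When the 3 driver classes of tumors were averaged with equal weight on the log scale and compared with livers, 5 members were called lower (Axin2, Notum, Sp5, Lgr5, and Tbx3), against 9.02% of all genes, and none higher. Their log2 fold changes were -0.56 for Axin2, -1.09 for Notum, -1.70 for Sp5, -1.17 for Lgr5, and -1.69 for Tbx3. These averages join classes that moved in opposite directions, T-HCC662 and T-HCC663 lay above all livers for each of the 5 genes, and only 3 of the 5 calls remained without T-HCC662, without T-HCC663, or without T-HCA992. Tcf7 was not called (0.83 ± 0.31, adjusted p of 0.0827) but passed as higher with the mouse block (0.92, adjusted p of 0.0131), with DESeq2 (0.0403), and without the liver paired with T-HCA992 (0.0271), over a range of 0.0131 to 0.23.

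Compared with the liver of the same mouse, all 10 members were higher in T-HCC662 and in T-HCC663, with median log2 ratios of 2.02 and 2.08 on the log2(CPM + 0.5) scale, where 48.8% and 49.4% of all genes tested were higher. In the Egfr- and Hras-mutated tumors 8 and 7 members were lower (medians -2.33 and -2.18), and in the adenomas T-HCA992 and TCi-HCA984 10 and 7 (medians -1.85 and -1.25). Of all genes tested, 49.6% and 49% were higher than the own liver in the Egfr- and Hras-mutated tumors, and 50.8% and 48.9% in the adenomas. Axin2, Nkd1, Notum, Sp5, Rnf43, Lgr5, and Tbx3 were lower than the own liver in all 4, as were 22.8% of all genes tested. For each of these 7 genes the ratio of TCi-HCA984 was the nearest to 0 of the 4, at -1.57 for Tbx3, for example, against -2.98 in T-HCA992. Among the Ctnnb1-mutated pairs, T-HCC662 gave the smaller rise of Notum (0.90, against 2.15 in T-HCC663) and the larger of Nkd1 (4.39, against 3.05). The liver of T-HCC662 was paired by assignment, since its title carries another number.

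**Figure D3:**
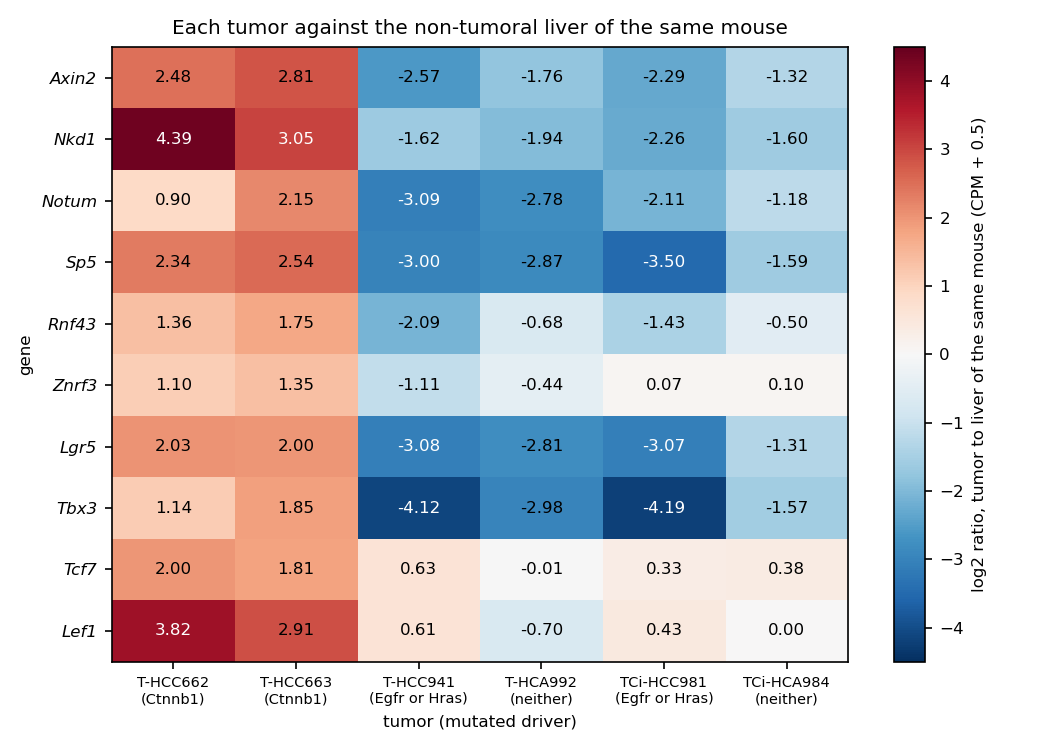
Log2 ratio of each tumor (columns, with its mutated driver) to the liver paired with it for each member (rows), from CPM + 0.5, with red for higher and blue for lower. T-HCC662 and T-HCC663 are red in all 10 rows, the other 4 tumors are blue from Axin2 to Rnf43 and in Lgr5 and Tbx3, and their values of Znrf3, Tcf7, and Lef1 stay between -1.11 and 0.63.

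The genotypes were compared in the livers alone, 2 p21+/TertCi against 4 p21+/Tert. None of the 9 members tested was called, as was the case for 0% of the 14009 genes tested in edgeR, of which 1164 had an unadjusted p below 0.05. DESeq2 called 174 genes and edgeR 80 without the liver paired with TCi-HCA984, again with no member among them. Notum had the smallest p-value of the members, with 40.9 and 30.3 CPM in the p21+/TertCi livers and 42.2 to 80.4 CPM in the p21+/Tert livers (-0.67 ± 0.29 on the log2 scale, 95% interval -1.23 to -0.11, adjusted p of 0.594). The intervals for Axin2 (-0.41 to 0.51) and Sp5 (-0.61 to 0.50) held no change as large as those in the tumors. Lef1 was too low to be tested in livers. Across the 6 livers, as a description, Axin2 followed Sp5 (Pearson r = 0.88) and Notum followed Znrf3 (r = 0.86), whereas Nkd1 ran against Tbx3 (r = -0.80) and with Lef1 (r = 0.85). These 6 points share the scaling of their libraries, and Lef1 rests on 0 to 7 reads.

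Levels per kilobase of exon allow a rough comparison between genes. The length joins all annotated exons of a gene and can exceed that of the transcript expressed. Notum was highest and Tbx3 next in livers, at 20.8 ± 7.15 and 9.25 ± 1.962 CPM per kb (SD, n = 6), followed by Rnf43 at 5.90 ± 0.92. Sp5 (2.91 ± 0.32), Axin2 (2.11 ± 0.26), Nkd1 (1.85 ± 1.17), Znrf3 (1.77 ± 0.21), Tcf7 (1.72 ± 0.78), and Lgr5 (1.199 ± 0.41) lay close to each other, and from Axin2 to Tcf7 neighbours differed by less than their SD. Lef1 was last, at 0.0185 ± 0.0185 CPM per kb. In Ctnnb1-mutated tumors Notum was still highest (62.5 and 78.3 CPM per kb), while Nkd1 stood next to it (33.4 and 34.2 CPM per kb), from place 6 of the livers. In the other tumors Notum was again first (3.67 ± 1.31, n = 4), and Sp5 took place 8 (0.273 ± 0.299).

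Genes outside the set that varied most like it over the 12 libraries were Csrp2 (Pearson r = 0.98 with the mean z-score of the members), Rhbg (r = 0.98), Glul (r = 0.97), Fbxl21 (r = 0.97), and Rasl11b (r = 0.96). They were followed by 2610020H08Rik, Idh3a, Fam21, Lhpp, and Gba2 (r = 0.96 to 0.93). The points share libraries and classes, so the correlations mainly order genes by their class means. Rhbg, an ammonium transporter of pericentral hepatocytes, had a mean of 12.5 CPM in livers, 296 CPM in Ctnnb1-mutated tumors, and 3.04 CPM in the others, and Csrp2, a LIM domain protein, had 31.6, 199, and 7.87 CPM. Among single members, the gene nearest to Sp5 was Glul (r = 0.99), that nearest to Tbx3 was Olig1 (r = 0.99), and that nearest to Lef1 was Cdh9 (r = 0.98). Tcf7 stood furthest from the set (r = 0.73 with the mean z-score), and its lowest correlation with another member was that with Tbx3 (r = 0.35).

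Of 23 Wnt ligands and R-spondins, 10 were high enough to be tested, and 4 were called lower and none higher in Ctnnb1-mutated tumors than in livers (3.2% of all genes were called lower). Rspo3, the R-spondin of central vein endothelium, had 3.203 to 9.57 CPM in livers, and 0 and 0.259 CPM in T-HCC662 and T-HCC663. The Egfr- and Hras-mutated tumors had 1.11 and 0.56 CPM of it and the adenomas 4.08 and 3.45 CPM. Its log2 fold change in Ctnnb1-mutated tumors was -5.20 (adjusted p of 0.006507, and 0.0376 with the mouse block), and it was called in every fit without 1 library. Wnt2, of the same endothelium, had 0.231 to 2.66 CPM in livers and no read in either Ctnnb1-mutated tumor, an at least 19.4-fold lower level with 3 reads over both tumors as the floor. Its call (adjusted p of 0.0139) ended with the mouse block (0.0742) and without T-HCC662 or T-HCC663 (up to 0.0854). Wnt9b, with 0.0447 and 0.0432 CPM in these tumors against 0.448 to 2.02 CPM in livers (adjusted p of 0.0321), lost its call with the block (0.12) and in 4 of the fits without 1 library (up to 0.179). The last of the 4, Wnt9a, named here after its values were seen, had an adjusted p of 0.0445 that rose to 0.209 with the block and passed the threshold in 1 of 12 fits without 1 library. In the Egfr- and Hras-mutated tumors Wnt2 had 0.583 and 0.204 CPM, Wnt9b 0.265 and 0 CPM, and Wnt9a 0.159 and 0.2545 CPM. In the adenomas Wnt2 had 0.931 and 0.862 CPM, Wnt9b 1.54 and 1.15 CPM, and Wnt9a 0.967 and 0.575 CPM. Low levels of these ligands were therefore not confined to the Ctnnb1-mutated tumors. Of the 4 markers listed for central vein endothelium, 3 are among these ligands, and the remaining one, Thbd, had 2.95 and 3.76 CPM in T-HCC662 and T-HCC663 and 0.925 to 5.05 CPM in livers (0.30, adjusted p of 0.777). RNA of 6 sinusoidal endothelial markers summed to 54.0 to 164 CPM in livers, 50.4 and 94.5 CPM in T-HCC662 and T-HCC663, and 131 to 253 CPM in the other tumors, and the part of endothelial cell content in the ligand levels was not tested. In the other tumors 2 ligands were called lower, against 11.5% of all genes. They were Wnt4 at -1.60 (adjusted p of 0.01033, a call that ended without T-HCA992) and Wnt5b at -2.13 (adjusted p of 0.0087).

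**Figure D4:**
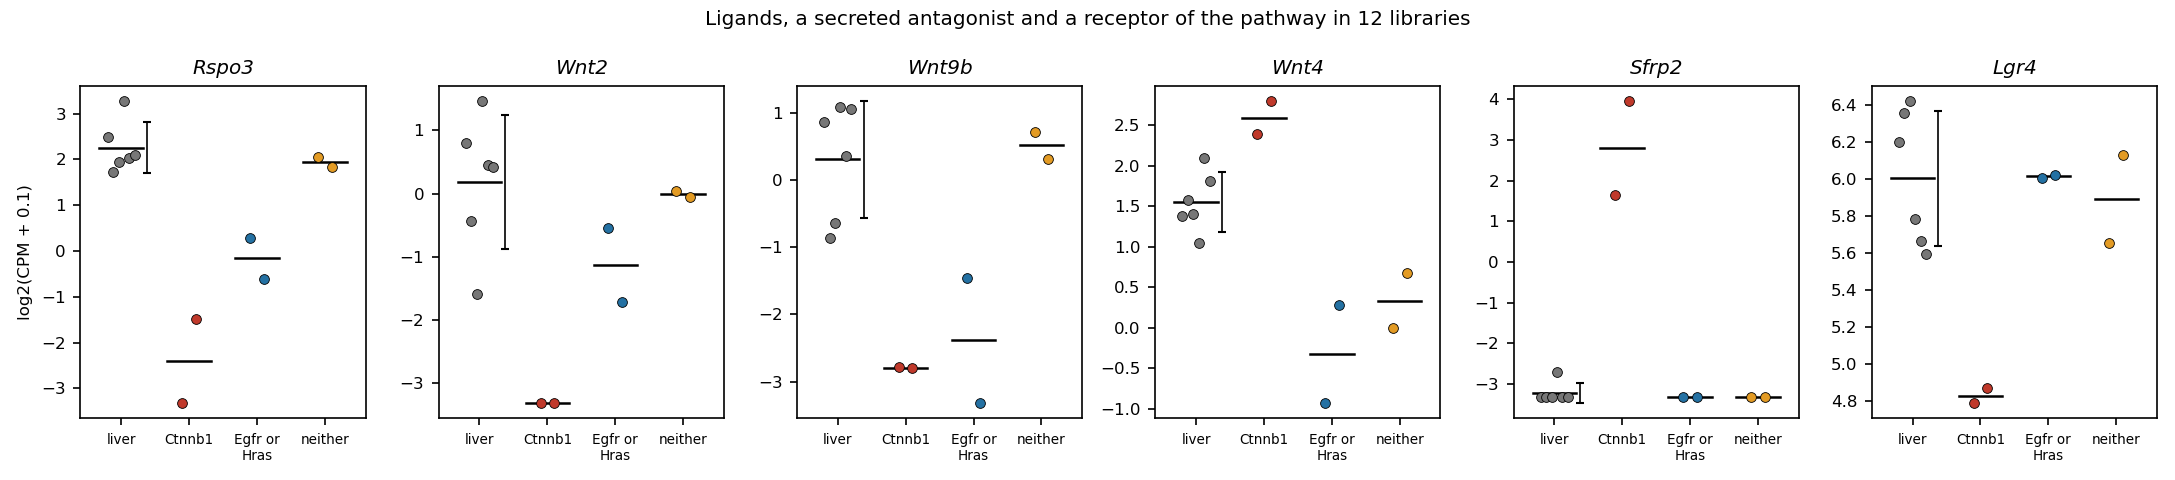
Levels of 3 ligand genes of central vein endothelium (Rspo3, Wnt2, and Wnt9b), of Wnt4, of the secreted antagonist Sfrp2, and of the receptor Lgr4, as log2(CPM + 0.1), in the same groups and colors as the members, with lines for means and a bar of ± 1 SD for the livers (n = 6). The Ctnnb1-mutated tumors are lowest for Rspo3, Wnt2, and Lgr4 and the only libraries above 1 CPM for Sfrp2.

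At the receptors, 2 of 12 tested genes were called lower in Ctnnb1-mutated tumors and none higher, against 3.2% and 5% of all genes. They were Lgr4, a widely expressed R-spondin receptor related to Lgr5, with 27.5 and 29.1 CPM against 48.2 to 85.6 CPM in livers (-1.22 on the log2 scale, adjusted p of 0.01867), and the Wnt co-receptor Lrp6 (-0.84, adjusted p of 0.02455, and 0.0519 with the block). Both calls ended without T-HCC662 or without T-HCC663 (adjusted p up to 0.129 and 0.149). In the other tumors 2 receptors were called higher and none lower, against 11.3% and 11.5% of all genes. Fzd5 rose by 1.05 (adjusted p of 0.005282), and Fzd3 had 0.92 to 5.70 CPM there against 0.0495 to 0.192 CPM in livers, but it passed the filter only through these 4 tumors, so its difference was a condition of being tested. Among 8 tested antagonists, the 1 gene called was Sfrp2, whose protein binds Wnt proteins outside the cell. It had 3.04 and 15.4 CPM in T-HCC662 and T-HCC663, 1 read in all 6 livers together, and none in the 4 other tumors. Like Lef1, it passed the filter only through the Ctnnb1-mutated tumors, so its call was a condition of being tested.

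Of 16 genes of β-catenin and its destruction complex, none was called in Ctnnb1-mutated tumors against livers in edgeR or in any fit without 1 library. Over all genes 5% were called higher and 3.2% lower in this comparison. The RNA of Ctnnb1 itself had 230 and 209 CPM in the mutated tumors and 162 to 254 CPM in livers (0.04 on the log2 scale, adjusted p of 0.953). It was higher in the 4 other tumors, at 250 to 395 CPM (0.67, adjusted p of 0.02958), a call that ended with the mouse block (0.0756) and in 5 of 12 fits without 1 library (up to 0.14). Of 15 nuclear factors, 2 were called lower in Ctnnb1-mutated tumors and none higher, against the same shares of all genes. Ctnnbip1, which keeps β-catenin from TCF proteins, had 4.02 and 3.85 CPM against 11.3 to 22.3 CPM in livers (-2.04, adjusted p of 0.006507, and up to 0.0624 without T-HCC662 or T-HCC663). Tcf7l1, a mostly repressive TCF protein, had 0.447 and 2.03 CPM against 2.93 to 18.8 CPM (-3.24, adjusted p of 0.0249, 0.07 with the block, and 0.158 without T-HCC662). Tcf7l2, a TCF gene of the adult liver, had 14.3 and 29.6 CPM in these tumors and 20.6 to 37.9 CPM in livers (adjusted p of 0.447).

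Other listed target genes of the Wnt pathway gave no common direction. Of 11 tested, 2 were called higher and 1 lower in Ctnnb1-mutated tumors, and 4 higher and 1 lower in the others. Of all genes, 5% were called higher and 3.2% lower in the first comparison, and 11.3% and 11.5% in the second. Tnfrsf19, a receptor of the TNF family, changed by 2.34 (adjusted p of 0.001227) in Ctnnb1-mutated tumors and by -1.19 (adjusted p of 0.01254) in the others, where the call ended without T-HCC941 or without T-HCA992 (up to 0.0653). Ccnd1, the gene of cyclin D1, rose in both classes, by 2.17 (adjusted p of 0.008935, 0.0585 with the block, and 0.0599 without T-HCC663) and 1.72 (adjusted p of 0.005412). Sox9, also a marker of bile duct cells, fell in Ctnnb1-mutated tumors (-1.86, adjusted p of 0.01053, and up to 0.1004 without T-HCC662 or T-HCC663) and rose in the others (1.63, adjusted p of 0.001092).

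The zonation lists place the members beside other hepatocyte genes. These lists were also chosen with earlier results of these data known. The study had already reported Glul and Rhbg, with the rest of the signature, as high in T-HCC662 and T-HCC663. Of 20 pericentral genes other than the members, 9 were called higher and none lower in Ctnnb1-mutated tumors (median log2 fold change 0.84), where 5% of all genes were called higher. In the other tumors 1 was called higher and 17 lower (median -2.16), against 11.3% and 11.5% of all genes. Glul had 9420 and 10170 CPM in T-HCC662 and T-HCC663, 1104 to 1860 CPM in livers, and 138 to 445 CPM in the others. Lhpp followed it (2.65 and -3.34, adjusted p of 0.002145 and 0.0002578), whereas Rgn fell in the other tumors (-3.91, adjusted p of 0.0003462) and was not called in Ctnnb1-mutated tumors (0.63, adjusted p of 0.482). The gene of the list that rose in both classes was the amino acid transporter Slc1a4 (3.08 and 2.40). Of 16 periportal genes, 12 were called lower and none higher in Ctnnb1-mutated tumors (median -3.65, with 3.2% of all genes called lower). The smallest p-values were those of the histidine-degrading enzyme Hal (-7.88), the urea cycle enzyme Arg1 (-5.28), and Sdsl (-6.24). In the other tumors 6 periportal genes were lower and 2 higher (median -1.002), among them the urea cycle enzymes Ass1 and Asl (-2.95 and -1.99), and Hal and Arg1 were not called (-0.57 and -0.51, adjusted p of 0.289 and 0.255). The count of pericentral genes called higher in Ctnnb1-mutated tumors was 7 with the mouse block and 4 to 9 with 1 library left out, and that of periportal genes called lower was 12 and 7 to 12.

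**Figure D5:**
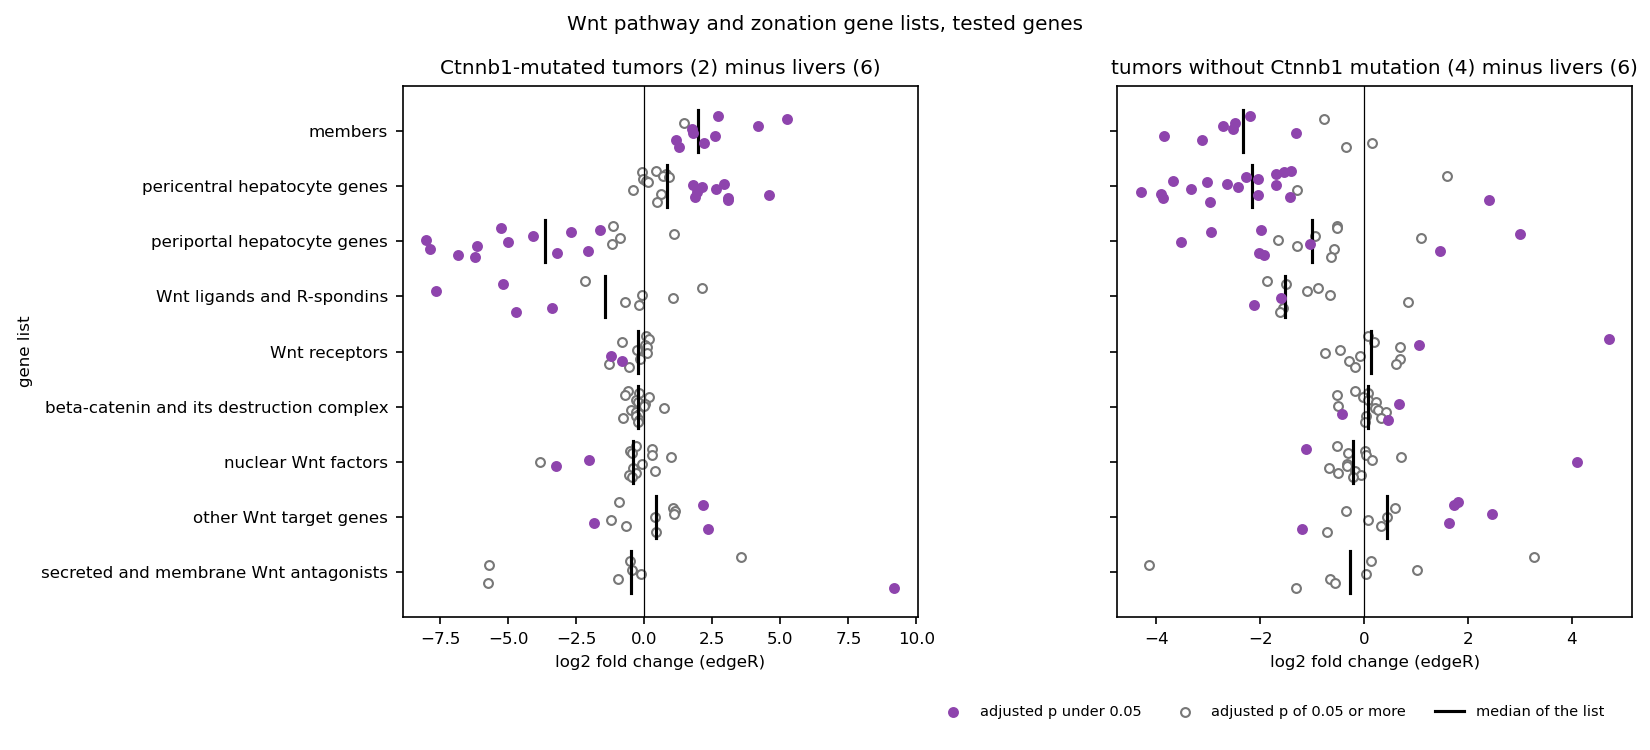
Log2 fold changes (horizontal axes, edgeR) of the tested genes of each list (rows) in Ctnnb1-mutated tumors (left) and in the other tumors (right) against livers, with filled points for an adjusted p below 0.05 and black lines for the list medians. The members lie to the right of 0 on the left panel, as do 17 of the 20 pericentral genes, and both lists lie mostly to the left of 0 on the right panel, and the periportal genes lie furthest to the left in Ctnnb1-mutated tumors. Values of genes without reads in 1 group, such as Wnt2 and Sfrp2, depend on the prior count of the fit and are not measured sizes.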

How the data were processed

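RNA-seq counts of 12 libraries were analysed, from 6 tumors and 6 paired non-tumoral livers. Per the labels and the methods of the study, poly(A) RNA was sequenced in paired ends, and the authors removed low-quality reads, mapped the remaining reads to mm10 and mCherry by Subread, and deposited whole-number counts per gene from featureCounts 1.6.4. The annotation release, strand setting, and treatment of multimapping reads are not given in the sources used here. The study also fitted the sequencing run as a batch, which the labels do not give.

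Counts were filtered by driver class (minimum count of 10), TMM-scaled, and tested with the quasi-likelihood F test of edgeR 4.0.16 (R 4.3.3) with a term for driver class over all 12 libraries, and with p-values adjusted by Benjamini-Hochberg at 0.05. The livers alone were fitted for genotype. SE is the fold change over the root of F, and a fold change is on the scale of the fit. Intervals were built from this SE with a normal quantile, without the limited degrees of freedom of the F test. They are therefore too narrow for their stated level, and calls rest on the adjusted p-values alone. Depth was 14571716 to 26170661 reads per library. The test was checked on simulated counts. Each library is a separate mouse or its paired tissue, and samples were grouped by titles and by the drivers named in the study. The liver titled with another number than its tumor was taken as that of T-HCC662. Tumor and liver of 1 mouse come from 1 animal and so pair. The deviations of each tumor correlated with those of its own liver at 0.084 to 0.438 over 15182 genes. The median correlation with the other livers was -0.127 to 0.076. For T-HCC663 the values were 0.084 and 0.076, so this check does not set its own liver apart.

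Positions are those of GRCm38, and near-identical copies were sought with minimap2 2.31. The members and lists were chosen with earlier results of these data known. Besides the members, up to 3 genes with the smallest p in each comparison with livers were named per list, and the 10 genes most correlated with the mean of the members. Alternatives were DESeq2 1.42.0, RLE scaling, no filter, the mouse as a block (also without mouse pair T-HCC662), genotype as a term, only the libraries compared, other pseudocounts (0.1 and 2 in place of 0.5), the mean of the 6 livers as reference, and leaving out each library. Those for the lists were added after seeing the data.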

Additional observations from a re-analysis of the deposited data

Results flagged for a closer look

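Tcf7 stood apart in T-HCA992, at 7.877 CPM, from the 3 other tumors without a Ctnnb1 mutation, of which the next had 4.428 CPM. This gap was 0.884 of the range of the 4. In all, 20 groups of values were examined in this way, and chance alone sets apart a sample in about 1 in 20. The liver paired with T-HCA992 had 7.925 CPM of Tcf7, the highest among the livers, and the log2 ratio of the tumor to it was -0.0082.

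The effect against livers differed between the 2 Ctnnb1-mutated tumors and the 4 others for each of the 10 members, tested in edgeR as the difference between the classes. On the log2 scale the difference was 4.91 for Axin2, 6.90 for Nkd1, 4.28 for Notum, 6.46 for Sp5, 3.08 for Rnf43, 1.63 for Znrf3, 3.95 for Lgr5, 4.28 for Tbx3, 2.05 for Tcf7, and 6.03 for Lef1. That of Lef1 was a condition of being tested, since the gene passed the filter only through the Ctnnb1-mutated tumors.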

How the results depend on the processing

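No fold change of a member that was called reversed. With the mouse as a replicate block, members called were 7 in Ctnnb1-mutated tumors against livers (9 without it), 7 in Ctnnb1-mutated against other tumors (10 without it), and 7 in the other tumors against livers (7 without it). When T-HCC662 and its liver were also left out of the blocked fit, which leaves 1 Ctnnb1-mutated pair, 1 member was called in Ctnnb1-mutated tumors against livers, 4 against the other tumors, and 3 in all tumors against livers. DESeq2 called 1 member (Tbx3) between Egfr- or Hras-mutated tumors and adenomas. With the mean of the 6 livers as reference, 1 member was higher in T-HCC941 (2 with the own liver), 1 in T-HCA992 (0), and 0 in TCi-HCA984 (2). With 1 library left out, members called ranged from 7 to 10 in Ctnnb1-mutated tumors against livers, 7 to 8 in the other tumors against livers, 9 to 10 between the classes, and 3 to 5 in all tumors against livers, and were 0 to 0 between the remaining tumor classes and between liver genotypes. Where a fit leaves 1 Ctnnb1-mutated tumor, that tumor is assumed to vary like the other groups. Over all genes, DESeq2 called 2126 in Ctnnb1-mutated tumors against livers (1245 in edgeR), 3111 between the classes (1896, and 441 with the block), 105 between Egfr- or Hras-mutated tumors and adenomas (0), and 174 between liver genotypes (0, and 80 without the liver paired with TCi-HCA984). The cause of these changes was not tested. Depth limits Lef1, Sp5 outside the Ctnnb1-mutated tumors, and the ligands.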
